A study of Mus musculus with 16 samples.

Results

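The genes described here encode 9 transcription factors of the AP-1 and BACH families: Fos, Fosb, Fosl2, Jun, Junb, Jund, Batf, Bach1 and Bach2. Their open chromatin was taken from the ATAC-seq peaks of 4 thymocyte stages, counting each peak that lay whole inside the gene body or within 30 kb on either side of it (mm10, GENCODE M21). Of 476734 peaks listed for the 4 stages, 814 were members, and they merged into 304 of the 185978 regions that the 4 lists form together when peaks sharing at least 1 bp are joined. All thymocytes came from C57BL/6J wild type mice 9 weeks old and were sorted by flow cytometry, and the same 4 mice gave all 4 stages. Cells of all 4 stages were negative for a cocktail of other lineage markers. DN cells carried neither CD4, CD8 nor CD3. DP cells carried both CD4 and CD8. SP4 and SP8 cells were CD3+ and kept CD4 or CD8. In ATAC-seq, a transposase cuts accessible DNA and leaves sequencing adapters there, so that reads accumulate at open chromatin. The libraries of the 4 mice were pooled by stage by the authors before peaks were called, and each stage was therefore a single list with no spread between mice. Differences between stages below are descriptions of 4 lists, and no test between stages was possible.

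AP-1 is a dimer of basic leucine zipper proteins. Jun proteins pair with each other or with Fos proteins and bind the 7-base AP-1 site, and signals from the T cell receptor reach them through MAP kinases. Batf lacks the activation domain of Fos, pairs with Jun proteins, and joins IRF4 at composite sites in lymphocytes. Bach1 and Bach2 pair with small MAF proteins at a longer site that holds an AP-1 site within it, and they mostly repress. Bach2 is known for holding T cells in a naive or resting state and for limiting their effector programmes, and Bach1 represses genes of haem and oxidant metabolism. RNA was not measured here, so the values below are of open chromatin at these genes and not of their expression.

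Bach2 was the member whose open chromatin differed most in number between the lists. Its window held 79 peaks at DN and 48 at DP, then 114 at SP4 and 107 at SP8, so both mature stages listed more peaks than either earlier stage. The other 8 genes together had the most peaks at DN, the longest list, with 136 peaks (DN), 113 (DP), 109 (SP4) and 108 (SP8). DN had the most peaks at 64.8% of all protein-coding genes with at least 10 peaks. Across all 9 genes the counts were 215, 161, 223 and 215. Lists differed in length, from 104411 peaks (SP8) through 107110 (DP) and 115074 (SP4) to 150139 (DN). Per 1000 peaks of its list, Bach2 held 0.526 peaks at DN and 0.448 at DP, then 0.991 at SP4 and 1.02 at SP8. On the same scale the other 8 genes together held 0.906, 1.05, 0.947 and 1.03, a much narrower range that was lowest at DN.

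**Figure D1:**
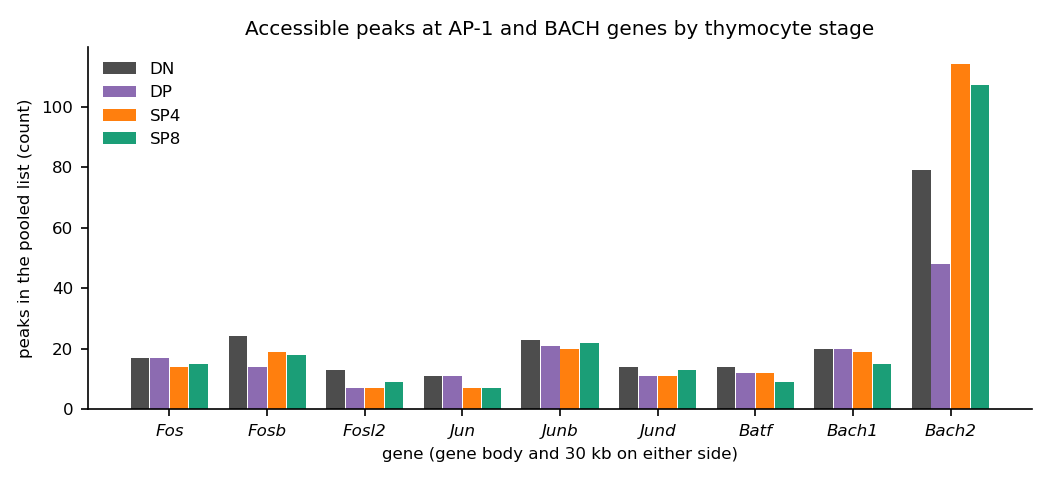
Number of peaks (vertical axis, count) at each of the 9 genes, with 1 bar for each pooled stage list (DN grey, DP purple, SP4 orange, SP8 green). Bach2 has 114 and 107 peaks at SP4 and SP8 against 79 and 48 at DN and DP, while no other gene has more than 24 at any stage.

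The windows ranged from 61.7 kb (Jund) to 94.4 kb (Bach1) except that of Bach2, whose gene of 347305 bp gave a window of 407.3 kb. Per 10 kb of window, Bach2 had 1.94 peaks (DN), 1.18 (DP), 2.8 (SP4) and 2.63 (SP8). Among the others, Junb was dense at every stage (3.58, 3.27, 3.11 and 3.42 peaks per 10 kb) and Fosl2 was sparse outside DN (1.58, 0.853, 0.853 and 1.1). Some windows also held other protein-coding genes, whose regions cannot be told apart from those of the member by position alone. There were 6 at Junb (including Hook2, Prdx2 and Rnaseh2a), 4 at Jund, 2 at Fosb (Ppm1n and Rtn2), 2 at Bach2 (Casp8ap2 and Gja10), and none at the remaining 5 genes.

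The sequences around 8 of the summits that the results below turn on are printed here from the RefSeq copy of GRCm38 (mm10). They are the start sites of Bach2 and Fosb, the tallest Bach1 region outside its start site, the tallest regions of DN and DP only at Jun and of SP4 and SP8 only at Bach2 and Jund, and the regions of largest fall at Fos and Bach2. Each runs from 100 bases before to 100 bases after the highest summit of the region, on the plus strand, 5′ to 3′, with motif matches in capitals. The motifs searched, on both strands and without mismatch, were the AP-1 site TGACTCA, the BACH and MAF type of AP-1 site with a G and C before it (GCTGACTCA or GCTGAGTCA, always overlapping an AP-1 match), the CRE TGACGTCA, the SRF CArG box, the EGR site GCGTGGG, the RUNX site TGTGGTT, the TCF7 and LEF1 site CCTTTGA, the ETS site CCGGAAG, and the E-box as CAGCTG or CAGGTG. Capitals mark a CRE at the Bach2 start site, an E-box at Bach2 +97.1 kb, an E-box and then a BACH and MAF type site at Bach1 +14.2 kb, a CArG box at the Fosb start site, a RUNX site at Fos +24.3 kb, a BACH and MAF type site and then an E-box at Jun -11.8 kb, and a BACH and MAF type site at Jund -14.4 kb. The window at Bach2 +161.3 kb held none of the 9 motifs. Distances of a match from a summit are given to the first base of the match on the plus strand.
Bach2 start site, chr4:32238594-32238794: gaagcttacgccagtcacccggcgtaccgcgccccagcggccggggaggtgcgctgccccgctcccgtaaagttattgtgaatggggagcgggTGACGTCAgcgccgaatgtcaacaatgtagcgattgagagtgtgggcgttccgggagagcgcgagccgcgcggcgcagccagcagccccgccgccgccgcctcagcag
Bach2 +97.1 kb, chr4:32335761-32335961: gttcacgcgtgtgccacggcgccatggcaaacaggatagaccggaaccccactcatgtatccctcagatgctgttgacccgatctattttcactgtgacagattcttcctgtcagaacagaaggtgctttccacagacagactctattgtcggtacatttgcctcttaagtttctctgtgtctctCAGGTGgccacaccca
Bach2 +161.3 kb, chr4:32400043-32400243: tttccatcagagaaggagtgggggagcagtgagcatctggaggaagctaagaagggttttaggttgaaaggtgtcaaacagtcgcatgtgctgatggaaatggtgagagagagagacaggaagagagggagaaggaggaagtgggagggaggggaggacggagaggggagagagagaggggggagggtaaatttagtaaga
Bach1 +14.2 kb, chr16:87713045-87713245: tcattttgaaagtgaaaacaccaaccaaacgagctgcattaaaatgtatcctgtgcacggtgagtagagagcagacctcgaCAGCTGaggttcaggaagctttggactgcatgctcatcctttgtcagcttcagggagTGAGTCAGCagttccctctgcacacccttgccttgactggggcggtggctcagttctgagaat
Fosb start site, chr7:19310258-19310458: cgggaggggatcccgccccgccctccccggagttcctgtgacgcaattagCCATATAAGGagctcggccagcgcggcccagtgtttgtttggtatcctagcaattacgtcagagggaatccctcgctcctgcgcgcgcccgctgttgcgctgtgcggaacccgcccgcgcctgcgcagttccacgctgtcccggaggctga
Fos +24.3 kb, chr12:85498135-85498335: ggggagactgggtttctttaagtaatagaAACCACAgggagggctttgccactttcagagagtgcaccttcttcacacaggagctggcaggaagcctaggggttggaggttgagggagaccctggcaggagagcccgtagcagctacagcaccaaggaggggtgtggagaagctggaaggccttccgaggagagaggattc
Jun -11.8 kb, chr4:95063952-95064152: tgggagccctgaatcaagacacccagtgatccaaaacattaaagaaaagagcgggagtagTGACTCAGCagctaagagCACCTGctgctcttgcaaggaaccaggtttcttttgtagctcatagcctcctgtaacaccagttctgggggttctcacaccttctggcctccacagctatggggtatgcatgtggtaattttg
Jund -14.4 kb, chr8:70684428-70684628: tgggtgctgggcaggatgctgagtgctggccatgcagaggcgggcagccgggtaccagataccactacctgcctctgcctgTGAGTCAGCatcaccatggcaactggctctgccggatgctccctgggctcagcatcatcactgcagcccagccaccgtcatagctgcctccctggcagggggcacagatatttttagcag

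All 9 start sites were open at all 4 stages, meaning that a peak covered the start of a protein-coding transcript in every list. The same held for 51.5% of 20780 autosomal protein-coding genes. The height of a peak is given here as its fold enrichment over the local background, as MACS2 reported it, and as the percentile of that fold enrichment among all peaks of the same list. A percentile near 0 is among the lowest fold enrichments of its stage, and one near 100 is among the tallest. Peaks were called by q-value, so a low percentile need not lie close to the calling threshold. The Fosb peak over the start at DN, for example, stood at 4.51 with a −log10 q-value of 11.1.

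By percentile of fold enrichment, Batf had the tallest start site peak of the 9 genes at every stage. Fos came next at every stage except SP8, where Bach1 stood higher. Batf and Fos lie on chromosome 12. At Fos (chr12:85473890-85477273, plus strand), an immediate early gene that responds within minutes to receptor signals, the start site peak had a fold enrichment of 15.8 at DN and 13.0 at DP, then 13.7 at SP4 and 12.6 at SP8. These correspond to percentiles of 89.4, 83.4, 82.4 and 78.0. At Batf (chr12:85686669-85709087, plus strand) the percentiles were 95.0, 93.9, 87.8 and 85.0. Both genes were thus highest at DN and lowest at SP8, over a range of 11.4 and 10.0 points.

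The Jun genes stood lower than Fos and Batf at every stage by percentile of fold enrichment. Jun varied over 3.7 points between lists, Jund over 11.5 and Junb over 18.8. At Jun (chr4:95049034-95052222, minus strand), which encodes the c-Jun partner of Fos, the start site percentiles were 68.9, 72.6, 71.3 and 68.9 at DN, DP, SP4 and SP8. Junb (chr8:84974484-84978718, minus strand), which is often counted as a weaker activator than Jun, had 41.0, 59.8, 56.6 and 55.0. Jund (chr8:70698949-70700616, plus strand), the Jun gene that resting cells express most steadily, had 40.3, 51.8, 49.6 and 41.3. By these percentiles Junb and Jund were lowest at DN and highest at DP. In fold enrichment itself both were also lowest at DN. Junb was then highest at SP8 (6.87, against 6.7 at DP) and Jund at SP4 (5.92, against 5.62 at DP). Fosl2 (chr5:32135801-32157842, plus strand), which encodes the Fos relative Fra-2, had 74.5, 64.7, 74.5 and 75.3. Ranked by q-value in place of fold enrichment, Jun stood at 94.1, 94.6, 95.8 and 94.4. It was then above Fos (92.9) at DP, and above Fos and Batf at SP4 (93.5 and 93.0) and SP8 (92.5 and 92.2). Junb and Jund stayed below Fos and Batf on that scale.

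By fold enrichment, Bach2 (chr4:32238804-32586108, plus strand) showed no such difference at its start site as in its peak count. Its start site peak had a fold enrichment of 7.36 (DN), 9.31 (DP), 7.58 (SP4) and 8.3 (SP8), at percentiles of 63.6, 72.6, 61.1 and 63.0. The order depended on the scale. Ranked by q-value, the region over the start stood at 80.5, 85.7, 86.4 and 86.9. With each list cut to the length of the shortest, it stood at 47.7, 71.9, 57.1 and 63.0. The summit lay 110 bp upstream of the annotated start. The CRE printed above stands at chr4:32238687-32238694, with its first base 7 bases before the summit and its last base on it.

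At 2 genes the list placed a narrow peak over the start beside a taller peak in the same merged region. At Bach1 (chr16:87698945-87733346, plus strand) the DN peak over the start was 112 bp wide at a percentile of 10.8, against 80.1 (DP), 68.2 (SP4) and 83.0 (SP8). The tallest DN peak of the same region stood at 88.4, so the low value is that of a separate narrow peak. At Fosb (chr7:19302696-19310051, minus strand), another immediate early gene, the peaks over the start stood at 4.51 at DN and 18.6 at SP4, with widths of 127 and 161 bp, and at 41.2 at DP and 51.6 at SP8. Taking the tallest peak of the Fosb region gave 46.7, 41.2, 53.0 and 51.6, a narrower range. This region holds the CArG box printed above.

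**Figure D2:**
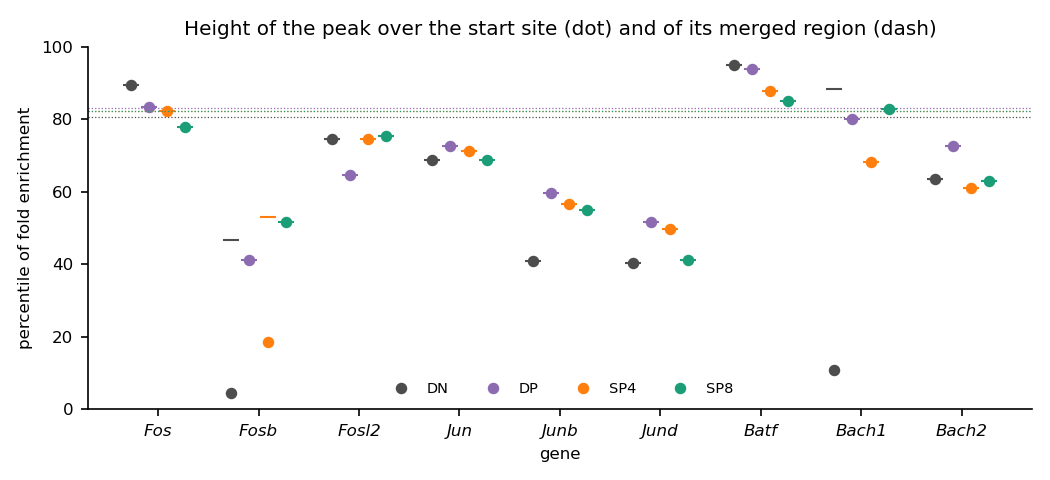
Percentile of fold enrichment within the stage list (vertical axis) of the peak over each start site (dots) and of the tallest peak of its merged region (dashes), coloured by stage, with dotted lines at the medians of all genes called at each stage. Batf and Fos are near or above the dotted lines, Junb, Jund and Fosb are below them, and dots part from dashes only at Fosb (DN and SP4) and Bach1 (DN).

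The median start site percentile of the 9 genes was 63.6 at DN and 72.6 at DP, then 68.2 at SP4 and 68.9 at SP8. Over all genes with a start site called at the stage, the medians were 80.8, 83.2, 82.3 and 82.4. The order did not hold for every measure of height. Ranked by q-value in place of fold enrichment, the medians of the 9 genes were 80.5, 86.4, 89.6 and 92.1 and those of all genes 84.9, 86.8, 86.7 and 87.2. The members were thus below all genes at DN and DP and above them at SP4 and SP8. The DN medians include the narrow peak over the Bach1 start. The tallest DN peak of that Bach1 region stood at 97.1 by q-value. By q-value, the place of the members at DN therefore depends on which peak of a region is taken.

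The regions at these genes were next sorted by the stages that listed a peak in them. Of the 304 regions, 112 (36.8%) were called at all 4 stages, where 34.1% of all merged regions were. At the 8 genes without Bach2 the share was 48.7% (75 of 154), and at Bach2 it was 24.7% (37 of 150). Regions called at DN and at no other stage made up 11.5% at the 9 genes against 21.7% of all regions. DN-only regions were thus rarer than elsewhere in this set, and regions of the mature stages were more common. Regions of SP4 alone made up 11.8% against 7.39%, those of SP8 alone 6.91% against 4.21%, and those of DP alone 1.64% against 5.17%. Regions called at DN and DP only were 3.95% against 5.59%, and regions of SP4 and SP8 only were 9.87% against 3.82%.

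Bach2 supplied most of the mature-stage regions. Of its 150 regions, 67 (44.7%) were called at SP4 or SP8 and at neither DN nor DP, a class that holds 15.4% of all merged regions. The remaining 8 genes had 20 such regions of 154 (13.0%). Within the class at Bach2, 26 regions were called at both SP4 and SP8, 27 at SP4 alone and 14 at SP8 alone. The opposite class, called at DN or DP and at neither SP stage, held 18 Bach2 regions. A further 14 were called at DN, SP4 and SP8 but not at DP, and 5 at DP, SP4 and SP8 but not at DN.

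These mature-stage regions at Bach2 were mostly small. Their median width was 174 bp, and the median percentile of their tallest peak was 17.6. The 37 Bach2 regions shared by all stages had a median width of 444 bp and a median percentile of 76.5. In 11 of the 67 the tallest peak reached a percentile of at least 50. The tallest of the class lay in the second intron at chr4:32335618-32336060, 97.1 kb downstream of the start, with a fold enrichment of 15.1 at SP4 and 12.5 at SP8 (percentiles 85.4 and 77.8). Its summit sequence is the second one printed above. A second, chosen after its values were seen, lay 136.6 kb downstream at percentiles of 78.4 (SP4) and 82.8 (SP8) and held an AP-1 match 19 bases from its summit. A region without a listed peak may still hold signal under the threshold of 5% FDR, so a class by calls is not a class by presence of signal.

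**Figure D3:**
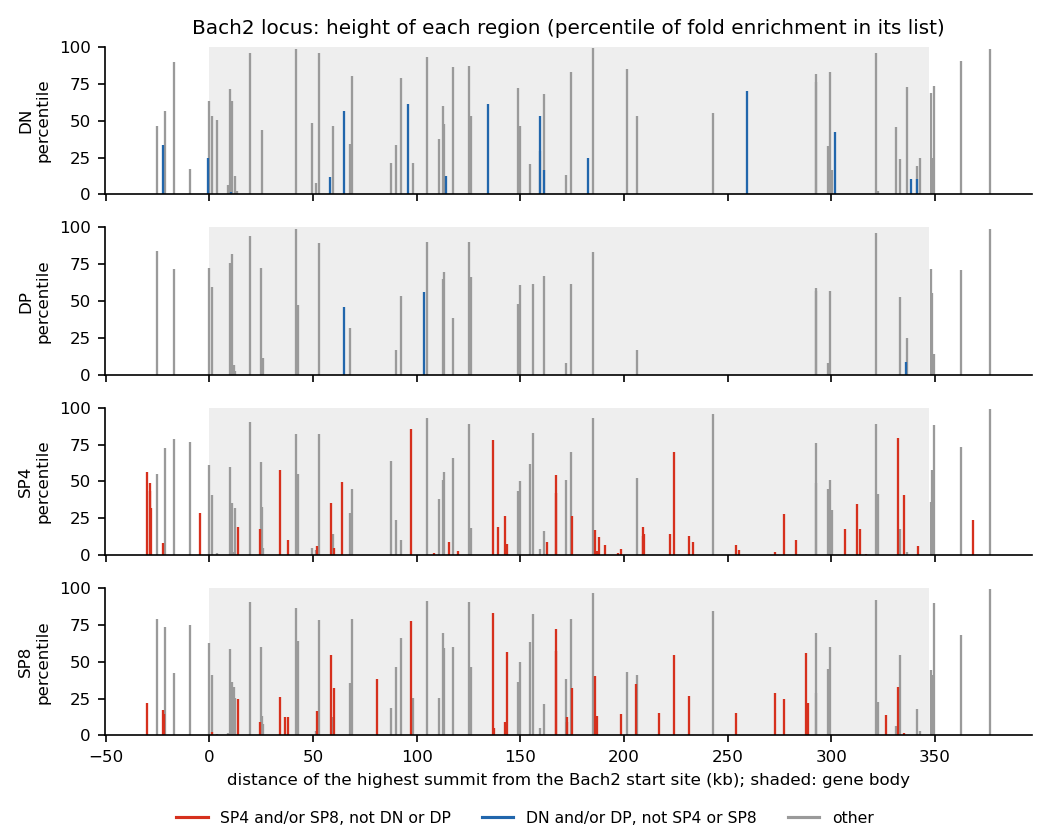
Height of every region of the Bach2 window (vertical axis, percentile of fold enrichment in the stage list) against distance from the start site (horizontal axis, kb), in 1 panel for each stage, with the gene body shaded. Red lines, the 67 regions of SP4 or SP8 without DN or DP, run along the whole gene and are mostly short, the tallest of them at 85.4.

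The additional peaks were spread along the gene and were densest relative to DN in its middle. The Bach2 gene has 6 introns, and 59 of the 67 mature-stage regions had their summit in the gene. Intron 3, of 84.0 kb, held 6 peaks (DN), 2 (DP), 18 (SP4) and 13 (SP8). Intron 2, the longest at 100.1 kb, held 25, 16, 33 and 32. Intron 1, of 78.1 kb, held 21, 13, 27 and 29 peaks, and intron 4, of 59.9 kb, held 8, 6, 14 and 11. Each of these 4 introns had more peaks at SP4 and at SP8 than at DN or DP. In bases, the peaks of the Bach2 window covered 22922 bp at DN and 14207 at DP, then 31921 at SP4 and 29607 at SP8. Summed fold enrichment over the window's peaks was 620.0 (DN), 409.0 (DP), 723.0 (SP4) and 724.0 (SP8), a smaller contrast between DN and the SP stages than in the counts.

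Not every tall region of Bach2 followed this order. Outside start sites the tallest was at chr4:32423539-32424032 in intron 3, 185.0 kb downstream, at percentiles of 99.0 at DN and 83.6 at DP, then 92.8 at SP4 and 96.8 at SP8. The tallest region of a single stage was one of DN, 259.5 kb downstream, at 70.0. The single region of DN and DP only lay 65.0 kb downstream at 56.8 and 46.0. One region 243.0 kb downstream, chosen after its values were seen, was called at DN (55.2), SP4 (95.7) and SP8 (84.6) and was not listed at DP.

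Measured against all genes, the peak count of Bach2 had an uncommon order of stages. The ratio of SP4 and SP8 peaks to DN and DP peaks was 1.74 at Bach2, higher than in 98.9% of the 16261 protein-coding genes with at least 10 peaks, whose median was 0.857. A ratio of at least 1.5 was seen in 2.47% of these genes. The other members ranged from 0.636 (Jun) to 0.974 (Fosb), on either side of that median. SP4 outnumbered DN at Bach2 alone among the 9 genes, by 1.44 times, and at 15.2% of all genes. SP8 outnumbered DN at Bach2 alone as well, by 1.35 times, and at 10.2% of all genes. DN had the most peaks at 5 members (Fosb, Fosl2, Junb, Jund and Batf) and at 64.8% of all genes. Bach2 ranked 10th of all genes by number of peaks, and of the 95 genes with at least 200 peaks, a set chosen after the values were seen, 1 other had a ratio as high.

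The contrast at Bach2 held under stricter lists. With a −log10 q of at least 5 its counts were 70 (DN), 41 (DP), 100 (SP4) and 101 (SP8). With each list cut to the length of the shortest by q-value, the counts were 57, 46, 103 and 107. The ratio of SP to DN and DP peaks was then 2.04, above that of 98.9% of genes, whose median moved to 1.0.

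**Figure D4:**
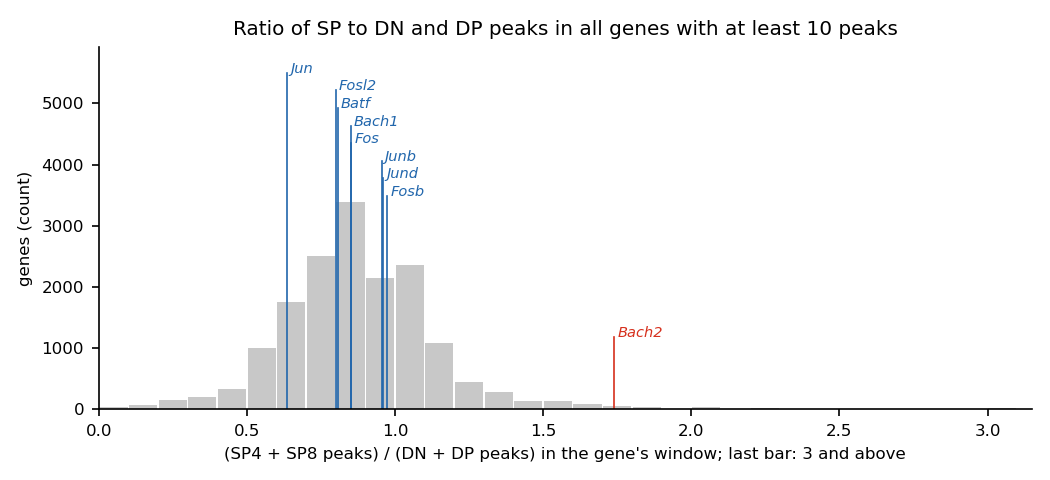
Histogram of all genes with at least 10 peaks (vertical axis, count of genes) by the ratio of SP4 and SP8 peaks to DN and DP peaks in the window (horizontal axis), with the 9 genes marked by labelled lines. Bach2 stands at 1.74 in the right tail, and the other 8 lie between 0.636 and 0.974, among the bulk of genes.

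By the profile of summed fold enrichment over the 4 stages, each divided by the total of its list, Bach2 was closest to Prss45, Larp4 and Cdc7 among 14115 genes with at least 20 peaks. Its shares were 20.7% (DN), 19.0% (DP), 29.1% (SP4) and 31.2% (SP8), and those of Prss45 were 20.3%, 19.5%, 28.9% and 31.4%. The profile of Fos was closest to Zfp446, Ldhc and Paf1, and that of Fosl2 to Zfp768, Myo3b and Ssrp1. Jun was closest to Gdf1, Abhd11 and Ppfia4, Junb to Smad3, Fkbp11 and Tut1, and Jund to Lrr1, Pigc and Vps26a. Batf was closest to Smg1, Qrfp and Bcl6b, and Bach1 to Cnppd1, Retreg2 and BC004004. The likeness is a Euclidean distance over 4 lists and was 0.00708 for the nearest gene to Bach2 and 0.00081 for the nearest to Fos.

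Heights were then compared between DN and the mature stages in the 112 regions that all 4 stages listed, as the mean of the SP4 and SP8 percentiles less that of DN. The difference was at least 25 points upward in 3 regions (2.68%) and downward in 11 (9.82%), against 6.07% and 12.8% of all 63369 regions called at all stages. The median difference was -2.4 points at the 9 genes and -1.8 over all regions. At Bach2 1 of 37 shared regions was higher at the SP stages and 8 (21.6%) were lower. The split depended on the scale, both for the 9 genes and for Bach2. With lists of equal length it was 19 higher and 5 lower of 104, against 14.0% and 8.13% of all shared regions. By percentile of q-value it was 7 and 8, against 5.3% and 14.5%. By fold enrichment itself, with a 2-fold threshold, it was 3 and 3, against 5.25% and 7.01%. At Bach2 the numbers higher and lower were 4 and 4 of 33 in lists of equal length, 4 and 3 by percentile of q-value, and 0 and 2 by fold enrichment. No direction is therefore given for the set or for Bach2. For the largest gain and the largest fall of each gene, described next, the sign was the same on all 4 scales, except that 2 of them (Bach2 +171.9 kb and Fosl2 -2.0 kb) were not called at all stages in lists of equal length.

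By percentile of fold enrichment in the full lists, Fos carried the largest single difference. The region at chr12:85497859-85498344, 24.3 kb downstream of the Fos start, had a fold enrichment of 11.4 at DN and 6.72 at DP, then 3.92 at SP4 and 3.49 at SP8. Its percentile went from 80.1 through 59.8 and 22.7 to 15.0, in the order of the stages. The difference was -61.2 points. In lists of equal length it was -56.5, smaller in size than the 58.9 of the Bach1 region described next. The region 23.0 kb downstream ran the other way, from a fold enrichment of 5.88 at DN and 7.38 at DP to 10.4 at SP4 and 13.4 at SP8. The 2 regions lie less than 1 kb apart, and both kept their direction on every scale. Between them lay another region, 23.6 kb downstream, listed at DN, DP and SP4 but not at SP8. The tallest region of Fos outside its start, 18.4 kb upstream at chr12:85454963-85455827, differed little, at percentiles of 96.0, 97.5, 98.0 and 96.9.

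On the same scale in the full lists, Bach1 had the largest differences in the other direction, both inside the gene. By q-value the gain at Bach2 +171.9 kb was larger, at 55.2 points. The intronic region at chr16:87723487-87723884, 24.7 kb downstream of the start, had a fold enrichment of 3.64 (DN), 6.53 (DP), 9.24 (SP4) and 8.26 (SP8). Its percentile was 19.7 at DN and between 58.5 and 68.9 at the later stages, a difference of 46.0 points that remained 25.1 by q-value and 58.9 in lists of equal length. A second intronic region, 7.1 kb downstream and chosen after its values were seen, had percentiles of 25.4, 48.4, 66.7 and 56.5. The largest fall of Bach1 was in the intronic region 1.2 kb downstream, at 75.9, 75.0, 62.1 and 55.3. That region held a BACH and MAF type site 5 bases from its summit. The tallest intronic region, 14.2 kb downstream with the BACH and MAF type site printed above, was higher at DN (90.1) and DP (88.0) than at SP4 (81.8) and SP8 (76.3). Another, 6.2 kb upstream and also chosen after its values were seen, stood at 89.8 at DN and 87.0 at DP, was not listed at SP4, and stood at 7.76 at SP8.

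At Bach2, the largest fall from DN was in an intronic region 161.3 kb downstream (chr4:32399795-32400231), with fold enrichments of 8.17 at DN and 7.95 at DP, then 3.56 at SP4 and 3.77 at SP8. The largest gain was 171.9 kb downstream, at 3.33, 3.04, 6.0 and 4.9, with percentiles of 12.9, 7.7, 50.8 and 38.3. Thus 2 regions about 10 kb apart in the second intron differed from DN in opposite directions, while both were listed at every stage.

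**Figure D5:**
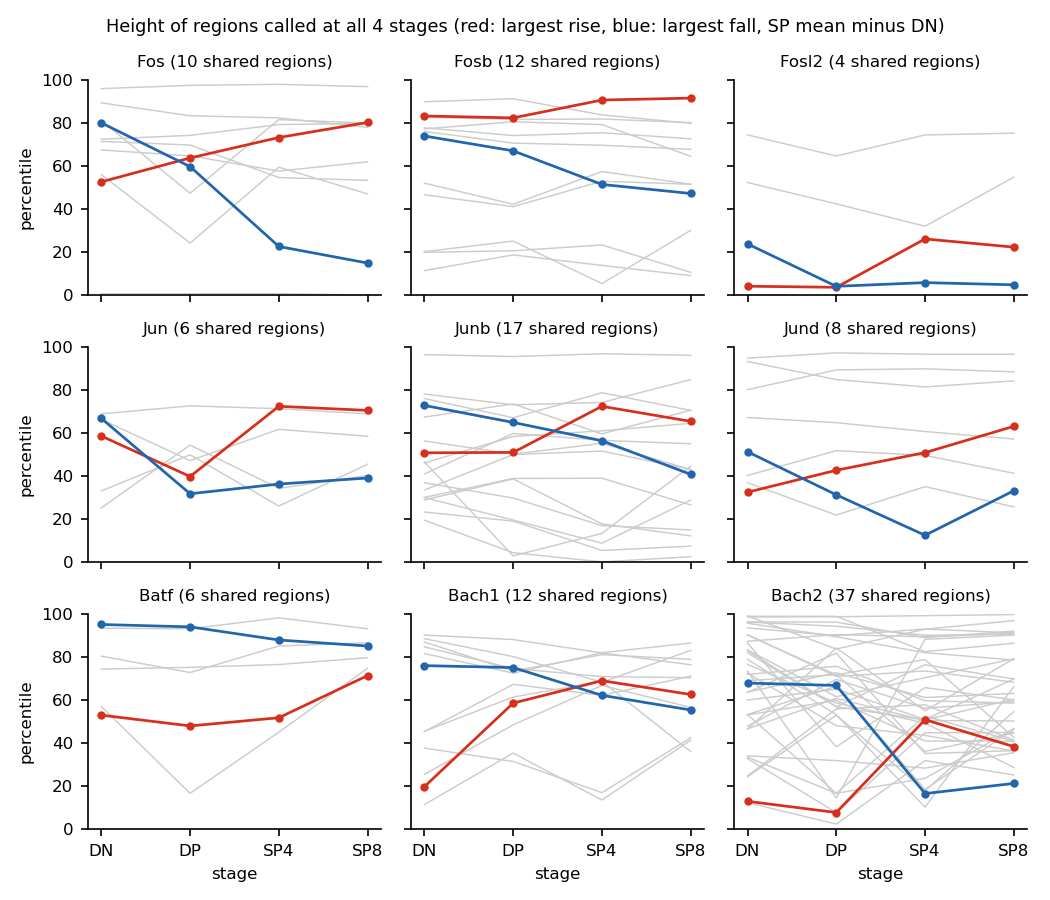
Percentile of fold enrichment (vertical axis) at DN, DP, SP4 and SP8 (horizontal axis) of the regions called at all 4 stages, in 1 panel for each gene, each grey line a region, with the region of largest gain in red and that of largest fall in blue by SP mean less DN. Fos +24.3 kb goes from 80.1 to 15.0 and Bach1 +24.7 kb from 19.7 to 62.5.

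Jun had few regions, and its tallest region away from the start was one of the early stages. It lay 11.8 kb upstream of the start (chr4:95063856-95064141) with a fold enrichment of 10.9 at DN and 6.08 at DP, percentiles of 78.5 and 55.1, and no listed peak at SP4 or SP8. The sequence printed above holds a BACH and MAF type AP-1 site 40 bases from its summit. The region 26.1 kb downstream had percentiles of 66.8, 31.8, 36.3 and 39.1, and the region 16.0 kb upstream had 58.6, 39.8, 72.4 and 70.5. The tallest Jun region of a single stage was of DN, 29.1 kb upstream at 56.9.

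Jund had the opposite kind of region. At chr8:70684131-70684673, 14.4 kb upstream of its start, peaks were listed at SP4 with a fold enrichment of 5.39 and at SP8 with 11.8 (percentiles 44.6 and 76.0) and at neither DN nor DP. This was the tallest region of SP4 and SP8 only outside Bach2, and it also holds a BACH and MAF type site, 19 bases from its summit. In the single coding exon of Jund, 1.1 kb downstream, percentiles were 51.3, 31.3, 12.5 and 33.2. A region 22.0 kb downstream in an intron of Gm3336 had 32.5, 42.7, 50.9 and 63.1. The tallest Jund region outside start sites was in an intron of Pde4c, 31.0 kb downstream, at 94.8, 97.2, 96.6 and 96.6. Its only named region of a single stage was of SP8, 5.2 kb upstream at 14.5.

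At Junb, Fosb and Batf the tallest region outside start sites was listed at all 4 stages. The tallest at Junb outside start sites was in an intron of Hook2, 19.4 kb upstream, at 96.4, 95.5, 96.8 and 96.1. Its largest differences between DN and the SP mean were at +25.7 kb in a coding exon of Rtbdn (50.8, 51.0, 72.4 and 65.4) and at +34.1 kb (72.8, 64.9, 56.4 and 40.8). A region 1.1 kb upstream of Junb, chosen after its values were seen, stood at 46.6 at DN and 44.6 at SP8 but at 2.94 at DP and 13.4 at SP4. At Fosb, the region 22.9 kb upstream was both the tallest outside start sites and the largest gain, at 83.3, 82.4, 90.7 and 91.6, and the region 8.8 kb downstream had the largest fall, at 74.0, 67.1, 51.5 and 47.3. Fosb also had a small region of SP4 and SP8 only, 11.6 kb upstream at 6.46 and 29.5.

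Batf was high upstream as well as at its start. Its region 25.6 kb upstream had percentiles of 93.3, 93.0, 98.1 and 93.0 and an AP-1 match 64 bases from its summit. The intronic region 1.4 kb downstream of the start had 52.9, 47.9, 51.7 and 71.3, highest at SP8. A region 20.5 kb upstream, chosen after its values were seen, was not listed at DN and stood at 3.17 at DP, 39.0 at SP4 and 84.7 at SP8. Another, 26.0 kb downstream and also chosen after its values were seen, had 56.9, 16.6, 45.0 and 74.7, lowest at DP. A region of DN and DP only lay 49.8 kb downstream at 9.01 and 53.1, and the tallest of a single stage was of DN, 16.4 kb upstream at 52.7.

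Fosl2 was the member with the fewest shared regions, 4 of 16. Its tallest region outside the start site was called at DN alone, 43.6 kb downstream (chr5:32179262-32179518), with a fold enrichment of 11.1 and a percentile of 79.0. That was the tallest region of a single stage at any of the 9 genes. A region in its intron 13.0 kb downstream, chosen after its values were seen, was listed at DN (34.3) and SP8 (78.8) and at neither DP nor SP4. The shared region 2.0 kb upstream had 4.25, 3.74, 26.2 and 22.4, and that 2.8 kb upstream had 23.9, 4.2, 5.92 and 4.9. Of the regions of a single stage at the 9 genes, 97 in all, the median percentile was 14.4, against 24.9 over all single-stage regions.

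AP-1 sites were about as frequent in the members' own regions as in regions elsewhere. A match of TGACTCA lay within 100 bases of the summit in 20 of 304 regions (6.58%) against 5.26% of all regions. The BACH and MAF type was found in 7 (2.3%) against 1.15%. By gene, AP-1 matches were in 7 of 150 regions at Bach2, 3 of 23 at Bach1, 2 each at Fosb, Junb, Jund and Batf, 1 each at Fosl2 and Jun, and 0 of 19 at Fos. Of the 67 mature-stage regions of Bach2, 3 held an AP-1 match, and 6.89% of all regions of that class did. The CRE of the Bach2 start site was the only one (0.329% against 0.448%).

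CArG boxes, the sites of SRF that serve immediate early genes, were found in 4 regions (1.32% against 0.766%), and all of them were called at all 4 stages. They were the Fosb start site, a region 12.1 kb downstream of Fos, and regions 2.1 kb downstream and 11.8 kb upstream of the Junb start. This count depended on the window. It was 2 within 50 bases of the summit and 9 over whole merged regions, for which no share of all regions was computed. A region not named here may therefore hold a CArG box further from its summit. EGR sites were in 2.63% of members against 1.91%. RUNX sites were in 7.57% against 10.4%, TCF7 and LEF1 sites in 2.3% against 4.72%, ETS sites in 2.3% against 2.67%, and E-boxes in 29.6% against 37.1%. A match is a description of letters in these windows and not evidence of binding.

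The other genes of the pathway were 33 in 4 lists, and 28 of them had a start site called at all 4 stages, against 51.5% of all genes. By number of peaks, 5 had more at SP4 than at DN (15.2% of all genes did), 2 had more at SP8 than at DN (10.2% of all genes), and 21 had the most at DN (64.8% of all genes). The order seen at Bach2, with both SP stages above both DN and DP, was found at Prdm1 alone among the 33, by a smaller margin. Summed over the 33 genes the counts were 523 (DN), 402 (DP), 441 (SP4) and 400 (SP8). In the AP-1 family outside the members, 4 of 7 genes were called at all stages. Batf2 and Batf3 had no start site called, and Atf3, a stress-induced repressor, had one at DN alone.

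The MAF and CNC partners of BACH proteins were open throughout, with start sites of all 9 genes called at all stages. Among them Mafg and Mafk, which encode small MAF proteins, stood low at DN (28.1 and 30.2) and between 44.4 and 53.9 later. Maff, which also encodes a small MAF protein, did not share this order, at 83.9 (DN), 88.3 (DP), 87.5 (SP4) and 79.7 (SP8). Of the kinases upstream of AP-1 and SRF, 8 of 9 genes were called at all 4 stages, and Mapk3 was called at SP8 alone. Of the partners and targets of BATF and BACH2, 7 of 8 were called at all stages. Among these, Prdm1, a repressor of lymphocyte programmes that BACH2 is known to restrain, had 17, 14, 18 and 19 peaks. Irf4, the partner of BATF, had 15, 18, 18 and 14, with a start site percentile of 52.4 at DN and 12.0 at SP4. Ccr6 was called at DN, DP and SP4.

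The labels were checked with marker genes, of which 45 of 46 were on the chromosomes listed. Start sites were called at all stages for 4 of 5 T cell genes (Bcl11b had none), for 3 of 4 DN genes, 4 of 5 DP genes and 5 of 5 SP genes. Hes1 was called at DN alone, Zbtb7b at SP4 alone, and 1 of 2 SP8 genes, Runx3, at all stages. For cells the sort could let through, the start sites called at all stages were 1 of 5 for B cells, 2 of 5 for myeloid cells, 1 of 4 for erythroid cells, and 0 of 3 each for NK, dendritic and epithelial cells. Peaks in the windows of the B cell genes numbered 77 at DN and 43 at DP, then 53 at SP4 and 37 at SP8. Those of the myeloid genes numbered 85, 47, 44 and 42. Both were most numerous at DN, the longest list, and so were those of the T cell genes (133, 114, 118 and 130). DN had the most peaks at 3 of 5 B cell genes, 5 of 5 myeloid genes and 4 of 5 T cell genes, and at 64.8% of all genes. Pax5, Lyz2 and Itgax were called at their start sites at DN alone, and Eomes at DP alone. Ebf1, Itgam, Cebpa and Epor were called at all stages, and the Itgam percentile was 60.7 at DN and 91.5 at SP8. The part of such cells in the DN values of the 9 genes was not tested.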

How the data were processed

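ATAC-seq of sorted DN, DP, SP4 and SP8 thymocytes from the same 4 mice at every stage (16 libraries) was analysed from 1 peak list per stage. As stated in the study's methods, reads were trimmed, aligned to mm10 with BWA, freed of duplicates with Picard, filtered for unique, properly paired reads, down-sampled to the median depth and pooled by stage, and MACS2 called peaks at 5% FDR. Pooling removes the spread between mice, and reads per library were not used here. The deposited lists give for every peak the value of MACS2 for its −log10 q-value, a score that is a multiple of it, and a fold enrichment, which is a ratio to the local background. All lists held chromosomes 1 to 19 only.

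Peaks sharing at least 1 bp were merged over the genome. Percentiles are shares of a stage's peaks with a lower fold enrichment. A start site was called where a peak covered the start of a protein-coding transcript of GENCODE M21. Motifs were searched within 100 bp of the highest summit (python 3.11.15, numpy 2.4.6, pandas 2.3.3, pysam 0.24.0, matplotlib 3.10.9) in the RefSeq copy of GRCm38, whose sequence names and lengths were checked against the lists. Regions were named by rule: at each gene the start site, the tallest region outside start sites, the tallest of a single stage, of DN and DP only and of SP4 and SP8 only, and the largest gain and fall. The 3 nearest genes by profile were also named by rule, and those of Fosb are not reported here. The 9 genes, the 4 pathway lists, the markers, the rules and the alternatives (list thresholds, equal lists, windows, annotation, measures of height) were chosen with earlier results of these data known. Merging, counting and motif searches were also tested on simulated data.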

Additional observations from a re-analysis of the deposited data

How the results depend on the processing

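No paired analysis was possible because the 4 mice were pooled in every list, and for the same reason no mouse could be left out. Of 127 values of the main results recomputed under alternatives, 93 stayed close to the reported value. The rule was loose for counts, which were taken as close within a factor of 1.5. The Bach2 count at DN, 57 in lists of equal length in place of 79, was close by this rule. Windows of 100 kb on either side gave 464, 350, 418 and 402 peaks at DN, DP, SP4 and SP8, and 594 regions, of which 232 were shared by all stages, 88 were of DN only and 25 of DN and DP only. Gene bodies alone gave 94, 67, 120 and 114 peaks. Windows of 10 kb left 19 regions of DN only and 6 of DN and DP only, and 4 pathway genes with more peaks at SP8 than DN. Lists of equal length left 18 and 5 such regions. Median start site percentiles were 80.5, 86.4, 89.6 and 92.1 by q-value, and 47.7, 71.9 and 65 at DN, DP and SP4 in lists of equal length. Shared regions higher at the SP stages numbered 7 by q-value, 1 at a threshold of 40 points and 19 in lists of equal length. Those lower numbered 3 at 40 points, 5 in lists of equal length and 3 by a 2-fold ratio of fold enrichments, the last an alternative chosen after seeing the data. At Bach2 the lower regions were 3 by q-value, 2 at 40 points, 4 in lists of equal length and 2 by that ratio, in place of 8. The peaks of Bach2 at SP4 stayed 1.41 to 1.81 times those at DN in every list and window tried for it.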
